A study of Mus musculus with 9 samples.

Results

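The genes described here are 10 genes of endocannabinoid synthesis and hydrolysis, Mgll, Abhd6, Abhd12, Abhd16a, Dagla, Daglb, Plcb2, Plcg2, Napepld and Naaa. They were found by gene symbol among the 59445 features of a normalized RNA-seq table, and each matched 1 feature. The libraries came from F4/80+ CD11b+ macrophages sorted from the livers of male C57BL/6 mice, 24 h after a single intraperitoneal dose of the liver toxin carbon tetrachloride (CCl4), which every animal received. The dose is labelled 0.6 mg/kg, a unit that could not be checked, and this agent is often dosed by volume. The groups were 5 MAGL Mye-/- libraries (S8 to S12, 3 of them labelled 10 weeks old and 2 labelled 11 weeks old) and 4 MAGL fl/fl control libraries (S1, S3, S4 and S5, all labelled 11 weeks old). MAGL stands for monoacylglycerol lipase, which Mgll encodes. The labels give neither the Cre driver nor the exons flanked by loxP sites, and no uninjured group was analysed here. The labels do not state that each library came from a separate mouse, so the p-values measure only the spread between these libraries.

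Endocannabinoids are lipid messengers made on demand from membrane lipids. Phospholipases C release diacylglycerol, diacylglycerol lipases turn it into 2-arachidonoylglycerol (2-AG), and monoacylglycerol lipase and several serine hydrolases split 2-AG into glycerol and arachidonic acid. N-acylethanolamines such as anandamide follow a parallel route, in which a phospholipase D releases them and amidases split them. In liver macrophages these lipids act on the cannabinoid receptor CB2, and the arachidonic acid they yield feeds prostaglandin synthesis.

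Values are read counts that the authors divided by 1 size factor per library. Between 33383559 reads (fl/fl S1) and 46489349 reads (Mye-/- S9) were recovered per library. Low features piled up at read numbers that correspond to 11.96 to 71.6 normalized reads, depending on the library. The highest pile-ups were in fl/fl S3 (71.6) and S4 (62.8), while those of Mye-/- libraries reached at most 45.8 (S10). The search for pile-ups left out features with fewer than 10 reads, and 453 (fl/fl S4) to 793 (fl/fl S1) detected features per library had so few. Values of the size of these pile-ups are treated here as near the detection limit, by convention and not as a measured limit. Mitochondrial reads made up 3.49% to 9.45% of a library, the highest share being in fl/fl S3. The sorted cells carried the genes of their gate: Adgre1, which encodes F4/80, averaged 6443 ± 1054 normalized reads in Mye-/- and 5433 ± 658 in fl/fl libraries, and Itgam, which encodes CD11b, averaged 49711 ± 4679 in Mye-/- and 48739 ± 7072 in fl/fl libraries (SD, n = 5 Mye-/- and 4 fl/fl). Csf1r, the macrophage growth factor receptor, averaged 53808 ± 8296 in Mye-/- and 47102 ± 7880.5 in fl/fl libraries. Lyz2, a lysozyme gene of myeloid cells, averaged 169027 ± 24893 in Mye-/- and 308919 ± 83367 in fl/fl libraries (limma adjusted p = 0.218). The summed level of 10 Kupffer cell markers, set mostly by Id3, spanned 21096 to 31908 normalized reads in Mye-/- and 10765 to 21132 in fl/fl libraries, and 7 of its 8 tested genes had a higher mean log2 value in Mye-/- libraries. In bulk samples, fewer cells of a type and less RNA per cell cannot be told apart.

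Promoter sequences were available from RefSeq (GRCm38.p6) for 8 of the 10 genes, as 250 bases before to 50 bases after an annotated start. They are shown for Mgll, the deleted gene, and for Plcb2, the gene with the smallest unadjusted p by limma, with every CG pair in capitals. Mgll has 2 overlapping windows in the table, of which the first is shown; the other holds 42 CG pairs. The Mgll window shown is chr6:88724162-88724461 on the plus strand and the Plcb2 window chr2:118728389-118728688 on the minus strand.
Mgll: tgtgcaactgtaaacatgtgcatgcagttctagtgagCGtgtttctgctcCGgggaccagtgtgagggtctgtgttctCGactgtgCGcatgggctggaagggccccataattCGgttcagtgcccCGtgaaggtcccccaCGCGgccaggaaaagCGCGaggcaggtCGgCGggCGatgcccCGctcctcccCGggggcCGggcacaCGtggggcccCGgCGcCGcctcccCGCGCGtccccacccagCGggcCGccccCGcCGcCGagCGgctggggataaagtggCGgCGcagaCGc
Plcb2: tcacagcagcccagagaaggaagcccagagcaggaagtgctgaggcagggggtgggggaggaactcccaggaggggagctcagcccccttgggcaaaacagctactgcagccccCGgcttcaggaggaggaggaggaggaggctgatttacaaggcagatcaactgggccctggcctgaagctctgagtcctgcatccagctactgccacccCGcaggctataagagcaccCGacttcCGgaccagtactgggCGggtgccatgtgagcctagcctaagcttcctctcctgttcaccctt
The Mgll window shown holds 32 CG pairs, more than 90.5% of the 32851 promoter windows in the same table, and the Plcb2 window holds 5, more than 38.0% of them, against a median of 7. The letters GAGGAA, the core of the PU box read by the myeloid factor PU.1, were searched on both strands and occur 2 times in the Plcb2 window and 0 times in the Mgll window, while 28.3% of all windows hold them. Of the other genes with a window, Daglb has 1 match and Plcg2, Naaa, Abhd16a, Napepld and Abhd6 have 0. No factor binding or methylation was measured.

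None of the 10 genes passed the test between genotypes (0 of the 9 tested). The test was limma on log2(normalized value + 1) with Benjamini-Hochberg adjustment over the 15288 features that reached a value of 10 in at least 4 libraries, at a threshold of 0.05. All genes except Abhd6 reached that level. Over all features 0.0196% passed, so few features of any kind were called. The count models edgeR and DESeq2, run on the recovered reads, called 0.0131% and 0.955% of features and again 0 of these genes, with lowest adjusted p of 0.594 and 0.576, both for Plcb2. Of the 9 tested genes, 5 had a higher and 4 a lower mean log2 value in Mye-/- libraries, with a median log2 fold change of 0.09 against 0.06 over all features. At an unadjusted p under 0.05, 1 gene was higher (Plcb2) and 0 were lower, beside 6.38% of all features higher and 4.13% lower. The values of Mye-/- and fl/fl libraries overlapped for all 10 genes.

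**Figure D1:**
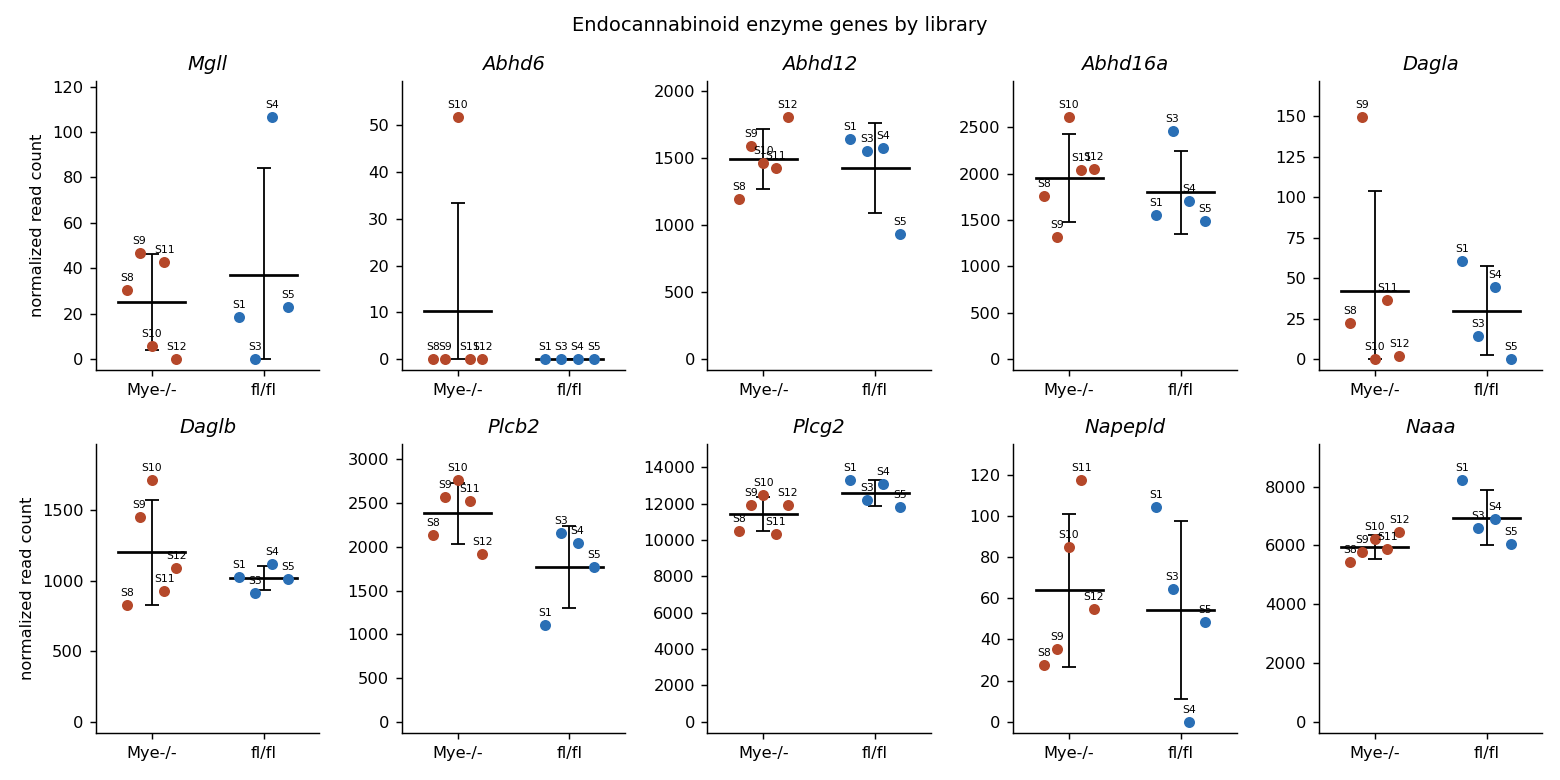
Normalized read count (vertical axis, linear, from 0) of each of the 10 genes in each library, Mye-/- (red, S8 to S12) left of fl/fl (blue, S1, S3, S4 and S5). Horizontal lines are means and bars are 1 SD, cut at 0. The genotypes overlap in every panel, and Mgll, Abhd6, Dagla and Napepld stay at or below 149.4 normalized reads.

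Mgll encodes the main hydrolase of 2-AG and is the gene deleted in the Mye-/- mice (chromosome 6, 88724412 to 88828360, mm10, plus strand, 9 exons in the transcript with the most). It had 30.4, 46.6, 5.93, 42.7 and 0 normalized reads in Mye-/- S8 to S12, against 18.6, 0, 106.5 and 22.8 in fl/fl libraries S1, S3, S4 and S5. Each genotype had a library at 0, and the highest value came from a fl/fl library. By counting error alone, with every read taken as independent, a count of 0 allows up to 3 reads, or 2.56 normalized reads in Mye-/- S12 and 3.58 in fl/fl S3. Low features piled up at 11.96 normalized reads in S12 and 71.6 in S3, in a search that could not fall below these bounds and so does not test them. The true level may still exceed these bounds. The means were 25.1 ± 21.2 in Mye-/- (SD, n = 5) and 37.0 ± 47.4 in fl/fl libraries (n = 4), and the log2 fold change was -0.15 ± 1.69 (SE; limma adjusted p = 0.985; exact permutation p = 0.905, two-sided). Its 95% interval, -3.70 to 3.41, covers both a large loss and a large gain, and the fold change turned positive without Mye-/- S10 (0.10), Mye-/- S12 (0.79), fl/fl S4 (0.80) or fl/fl S5 (0.08). Since the reads are counted over the whole gene, whose removed part is not given, the deletion could not be checked from them. An antisense gene, Gm26588, covers 167 bases of Mgll exons (3.29%), and the strand setting of the counting is not given.

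Abhd6, a membrane-bound hydrolase that also splits 2-AG (chromosome 14, 8002888 to 8056770, plus strand), was detected in 1 library. It had 51.7 normalized reads (61 reads) in Mye-/- S10 and 0 in Mye-/- S8, S9, S11 and S12, against 0 in all 4 fl/fl libraries (exact permutation p = 1, two-sided). By counting error alone, with every read taken as independent, a count of 0 allows up to 2.41 to 3.58 normalized reads, depending on the library. The low read pile-ups were sought only from 10 reads up and so had to stand higher in every library. They do not test these bounds, which the true level may exceed. The value in Mye-/- S10 was near the low read pile-up of that library, at 54 reads or 45.8 normalized reads, and so near its detection limit. Mye-/- S10 also had the highest summed level of 10 hepatocyte markers, 32438 normalized reads. In the other Mye-/- libraries the sum was 14976 to 20951, and in the fl/fl libraries 13830 to 26627. Most of this sum was Trf in every library, the transferrin gene, at 20777 in Mye-/- S10 and 26014 in fl/fl S1. Alb, the albumin gene of hepatocytes, stood at 7085 normalized reads in Mye-/- S10, against 1224 at most in any fl/fl library. The part of these cells in the Abhd6 reads was not tested.

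Abhd12 was the most abundant of Mgll, Abhd6 and Abhd12, the hydrolases best known to act on 2-AG (chromosome 2, 150832496 to 150904733, minus strand). This enzyme splits 2-AG and is best known as a lipase of lysophosphatidylserine. It had 1193, 1590, 1464, 1422 and 1802 normalized reads in Mye-/- S8 to S12, against 1641, 1551, 1575 and 929 in fl/fl libraries S1, S3, S4 and S5. The lowest value was a fl/fl one (S5) and the highest a Mye-/- one (S12), and Mye-/- S8 was the next lowest. Means were 1494 ± 224 in Mye-/- and 1424 ± 332 in fl/fl libraries, with a log2 fold change of 0.09 ± 0.21 (95% interval -0.34 to 0.53; limma adjusted p = 0.905), which turned to -0.10 without fl/fl S5. Of the reads per kb of Mgll, Abhd6 and Abhd12 together, Abhd12 took 98.2% ± 1.54 in Mye-/- and 98.6% ± 1.58 in fl/fl libraries. Mgll took at most 1.64% of them in a Mye-/- library and at most 3.62% in a fl/fl library, so among these 3 genes the deleted one was a minor transcript also in the controls. Transcript shares do not give shares of enzyme activity.

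Abhd16a makes lysophosphatidylserine from phosphatidylserine and hydrolyses monoacylglycerols in vitro (chromosome 17, 35089291 to 35102987, plus strand). It had 1754, 1322, 2609, 2036 and 2052 normalized reads in Mye-/- S8 to S12, against 1551, 2457, 1703 and 1492 in fl/fl libraries S1, S3, S4 and S5. The lowest and the highest value both came from Mye-/- libraries. The log2 fold change was 0.11 ± 0.21 (95% interval -0.32 to 0.55; limma adjusted p = 0.880), and it was 0.00018 without Mye-/- S10. The log2 ratio of Abhd12 to Abhd16a, a difference within a library, averaged -0.37 ± 0.42 in Mye-/- and -0.34 ± 0.39 in fl/fl libraries.

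Among the enzymes that make 2-AG, Daglb was present in every library and Dagla only in traces. Daglb, the diacylglycerol lipase best known in macrophages (chromosome 5, 143464493 to 143505942, plus strand), had 829, 1448, 1712, 927 and 1088 normalized reads in Mye-/- S8 to S12, against 1024, 912, 1116 and 1014 in fl/fl libraries S1, S3, S4 and S5. Mye-/- S9 and S10 stood above every fl/fl library, while Mye-/- S8 stood below all of them. The means were 1201 ± 370 in Mye-/- and 1017 ± 83.5 in fl/fl libraries, so the Mye-/- values spread more widely, with coefficients of variation of 30.8% in Mye-/- and 8.22% in fl/fl libraries. Its log2 fold change was 0.19 ± 0.23 (95% interval -0.29 to 0.68; limma adjusted p = 0.812), and between mice of 11 weeks alone it was -0.09. Daglb overlaps Rac1 on the opposite strand, by 463 bases between the features of the deposited table and by 24.1% of the exon bases of Daglb in the GENCODE annotation, and Rac1 averaged 23447 ± 2916 normalized reads in Mye-/- and 27431 ± 6503 in fl/fl libraries. Reads of the shared bases cannot be told apart without strand. Over the 9 libraries the log2 values of Daglb and Rac1 had a Pearson r of -0.14.

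Dagla, the diacylglycerol lipase best known in neurons (chromosome 19, 10245266 to 10304877, minus strand), had 22.3, 149.4, 0, 36.3 and 1.71 normalized reads in Mye-/- S8 to S12, against 60.3, 14.3, 44.5 and 0 in fl/fl libraries S1, S3, S4 and S5. Mye-/- S9 alone exceeded the fl/fl values, and each genotype had a library at 0. The log2 fold change of -0.16 ± 1.77 (limma adjusted p = 0.984) was positive in both count models, 0.50 with edgeR and 0.49 with DESeq2, so the data give Dagla no direction. Daglb took 94.9% ± 5.97 of the reads per kb of both lipases in Mye-/- and 95.6% ± 3.95 in fl/fl libraries.

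Plcb2 had the smallest p of the 10 genes (chromosome 2, 118707517 to 118728590, minus strand). It encodes a phospholipase C of blood cells that G proteins activate, and it had 2139, 2567, 2764, 2525 and 1914 normalized reads in Mye-/- S8 to S12, against 1111, 2157, 2039 and 1774 in fl/fl libraries S1, S3, S4 and S5. Mye-/- S9, S10 and S11 stood above every fl/fl library, Mye-/- S8 and S12 lay among the fl/fl values, and fl/fl S1 was the lowest of all. Means were 2382 ± 346 in Mye-/- (SD, n = 5) and 1770 ± 468 in fl/fl libraries (n = 4). The log2 fold change was 0.46 ± 0.20, a fold of 1.03 to 1.84 at 95%, with an unadjusted p of 0.0328 and an adjusted p of 0.438 (limma; exact permutation p = 0.0635, two-sided). It dropped to 0.25 without fl/fl S1 (exact permutation p = 0.161) and to 0.24 between mice of 11 weeks alone (limma adjusted p = 0.976). The 3 highest Mye-/- libraries came from the mice of 10 weeks, for which age and genotype cannot be told apart.

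Plcg2, the phospholipase C that tyrosine kinases activate downstream of Fc and other immune receptors (chromosome 8, 117498275 to 117635142, plus strand), had 10506, 11913, 12452, 10347 and 11939 normalized reads in Mye-/- S8 to S12, against 13299, 12199, 13074 and 11812 in fl/fl libraries S1, S3, S4 and S5. Of the Mye-/- libraries, S8 and S11 lay below every fl/fl value and the other 3 did not. The log2 fold change was -0.14 ± 0.12 (95% interval -0.40 to 0.11; limma adjusted p = 0.7102; exact permutation p = 0.127). Of the reads per kb of both phospholipases, Plcb2 took 11.97% ± 1.58 in Mye-/- and 8.41% ± 2.25 in fl/fl libraries, with Mye-/- S12 at 9.46% inside the fl/fl range of 5.16% to 10.3%. Plcg2 was the larger transcript in every library.

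On the N-acylethanolamine route, the gene of the releasing enzyme was scarce and that of a hydrolase abundant. Napepld, the phospholipase D that releases anandamide and its relatives (chromosome 5, 21662901 to 21701622, minus strand), had 27.4, 35.3, 84.8, 117.5 and 54.7 normalized reads in Mye-/- S8 to S12, against 104.5, 64.5, 0 and 48.3 in fl/fl libraries S1, S3, S4 and S5. Detected in 8 of 9 libraries, it overlapped between genotypes, and its log2 fold change of 1.23 ± 1.31 (limma adjusted p = 0.779) rested on the 0 in fl/fl S4, without which it was -0.30.

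Naaa, the lysosomal amidase that splits palmitoylethanolamide in particular (chromosome 5, 92257660 to 92278183, minus strand), had 5421, 5766, 6215, 5863 and 6445 normalized reads in Mye-/- S8 to S12, against 8221, 6586, 6910 and 6048 in fl/fl libraries S1, S3, S4 and S5. In fl/fl S1, S3 and S4 the value exceeded all Mye-/- ones, and fl/fl S5 lay within the Mye-/- range. Means were 5942 ± 399 in Mye-/- and 6941 ± 925 in fl/fl libraries, with a log2 fold change of -0.22 ± 0.13 (95% interval -0.49 to 0.06; limma adjusted p = 0.572). The exact permutation test on Naaa alone gave an unadjusted p of 0.0476 (two-sided), 1 of 10 such tests. Leaving out any single library but fl/fl S5 took it to between 0.0571 and 0.143, and without fl/fl S1 the log2 fold change was -0.13. Naaa took 99.0% ± 0.57 of the reads per kb of Naaa and Napepld in Mye-/- and 99.3% ± 0.51 in fl/fl libraries.

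**Figure D2:**
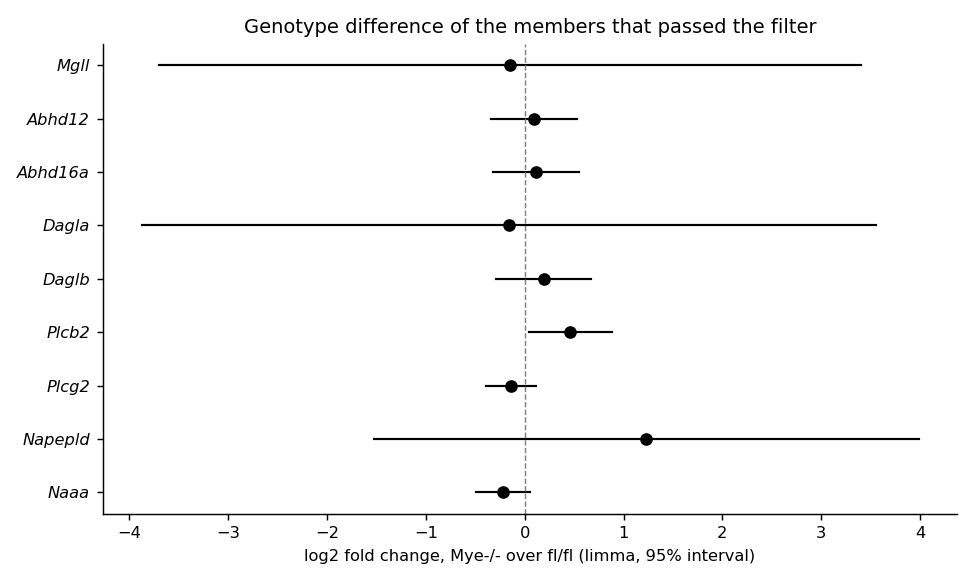
Log2 fold change of Mye-/- over fl/fl libraries (horizontal axis) for the 9 tested genes, from limma, with 95% intervals as lines. The interval of Mgll runs from -3.70 to 3.41 and that of Plcg2 from -0.40 to 0.11; of the 9 intervals, only that of Plcb2 (0.04 to 0.88, unadjusted) leaves out 0.

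Levels of different genes were compared per kb of exon, and by the mean over 9 libraries they fell into 2 tiers. The upper tier opened with Plcg2 at 2780 normalized reads per kb (higher than 93.8% of the 11220 tested features with a known length) and Naaa at 1716 (90.1%). Abhd16a followed at 586 and Abhd12 at 518, and these neighbours did not differ beyond their spread, Abhd16a being the higher in 5 of 9 libraries. Plcb2 stood at 320 and Daglb at 117 (43.2%). In all 9 libraries each of Plcg2, Naaa, Abhd12, Plcb2 and Daglb stood above the next gene in this order.

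The lower tier held Napepld at 15.1 normalized reads per kb (higher than 12.01% of tested features with a known length), Dagla at 6.36, Mgll at 5.99 (4.03%) and Abhd6 at 2.43. Dagla was above Mgll in 4 of 9 libraries, and these 2 did not differ beyond their spread. With the length of the longest annotated transcript in place of all exon bases, Abhd16a stood at 969.7, Abhd12 at 731.9, Plcb2 at 410.1 and Daglb at 229.4 normalized reads per kb, while Mgll (7.62) changed places with Dagla (6.49).

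**Figure D3:**
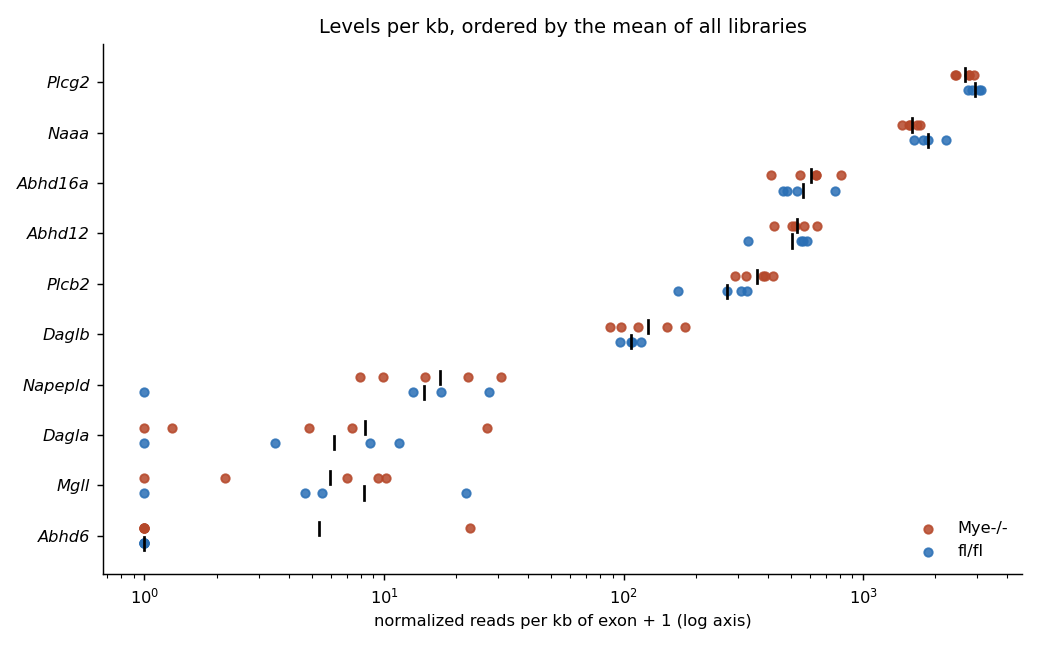
Normalized reads per kb of exon plus 1 (horizontal axis, log scale) for the 10 genes, ordered by their mean over 9 libraries. Points are libraries, Mye-/- (red) above fl/fl (blue), and short vertical lines are means; Daglb and the 5 genes above it stay apart from the 4 genes that reach 0 in some library.

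The 6 genes with a mean of at least 100 normalized reads gave 15 pairs, whose log2 values were compared over the 9 libraries. Naaa and Plcg2 had the highest r over all 9 libraries, with a Pearson r of 0.81 (exact permutation p = 0.00627, 0.0941 after Benjamini-Hochberg adjustment over the 15 pairs) and a Spearman rho of 0.87 (exact permutation p = 0.00451, adjusted 0.0676). After centring each genotype r was 0.69, below that of Daglb and Plcg2 (0.81) and of Abhd12 and Naaa (0.76), whose r over all libraries was 0.43 and 0.46. The r of Naaa and Plcg2 was 0.70 without Mye-/- S8 and fl/fl S1, the libraries farthest from the median of Naaa. Naaa and Plcb2 varied in opposite directions, with r = -0.76 (exact permutation p = 0.0289, adjusted 0.217) and rho = -0.48 (p = 0.194, adjusted 0.531). That relation rested on the same pair of libraries, since r was -0.44 without them. None of the 15 pairs passed after adjustment.

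Over 6762 features with a mean of at least 500, the features most like each abundant gene across the 9 libraries were found by Pearson r of log2 values, as a description. For Plcb2 they were Pisd-ps3 (r = 0.98) and Rgl2 (0.96), for Naaa Impa1 (0.99) and Ptpa (0.98), and for Plcg2 Fam110a (0.97) and Mlec (0.95). Those of Abhd12 were Tor4a (0.95) and Brat1 (0.92), those of Abhd16a Hmga2-ps1 (0.89) and Deaf1 (0.88), and those of Daglb Fbrs (0.90) and the joint feature 2410002F23Rik // Gm15517 (0.90). Pisd-ps3 and Hmga2-ps1 are pseudogenes, whose reads may be shared with their parent genes. All points share library depth and size factor.

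The rest of the pathway was read from 9 lists of 121 other genes, of which 115 were in the table, 84 could be tested and 15 were at 0 in every library. None passed the adjusted threshold with limma, edgeR or DESeq2 (lowest adjusted p of 0.271, 0.369 and 0.101). With limma, 46 had a higher and 38 a lower mean log2 value in Mye-/- libraries, 11 and 1 of them at an unadjusted p under 0.05 (of all features, 6.38% and 4.13%), and the median log2 fold change was 0.02 against 0.06 over all features. In 4 genes every Mye-/- value lay above every fl/fl value, as in 1.70% of all features, and in 1 gene every Mye-/- value lay below, as in 1.60%. With mice of 11 weeks alone, 2 list genes were higher and 0 lower at an unadjusted p under 0.05.

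Genes that make or use diacylglycerol, the substrate shared with Dagla and Daglb, held 5 of those 11 genes, beside 6.38% of all features higher at that level. The list, like the others, was chosen with earlier results of these data known, so this count is a description only. Of 13 tested, 10 had a higher and 3 a lower mean log2 value, with a median log2 fold change of 0.46. Dgkz, a diacylglycerol kinase that limits diacylglycerol signalling in immune cells, had 4019, 4459, 4648, 4056 and 4411 normalized reads in Mye-/- S8 to S12, against 2160, 3196, 2917 and 3894 in fl/fl libraries S1, S3, S4 and S5. Its genotypes did not overlap, and its log2 fold change was 0.53 ± 0.16 (limma adjusted p = 0.271). Dgkd, another kinase of the family, averaged 1229 ± 151 in Mye-/- and 807 ± 162 in fl/fl libraries (limma adjusted p = 0.326). The other 3, named after their values were seen, were the acylglycerol kinase gene Agk and the phosphatidate phosphatase genes Lpin1 and Lpin2. Their limma adjusted p were 0.332, 0.473 and 0.332. Agk had 22.4 to 158 normalized reads in Mye-/- and 0 to 29.0 in fl/fl libraries, partly near the detection limit. With fl/fl S1 and S3 left out, 3 of the 5 stayed under an unadjusted p of 0.05, and between mice of 11 weeks 1 did.

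Upstream of the phospholipases, 2 of 22 tested activators had an unadjusted p under 0.05, both higher, a share near the 6.38% of all features. Syk, the kinase that starts signalling to Plcg2 from Fc receptors, averaged 12508 ± 469 normalized reads in Mye-/- and 9192 ± 1745 in fl/fl libraries, without overlap (log2 fold change 0.47 ± 0.14, limma adjusted p = 0.271). In fl/fl S1, which was also the lowest library for Plcb2 and Dgkz, Syk stood at 6579, and the other fl/fl libraries had 9924 to 10135, still under the Mye-/- minimum of 11765. Tec, a related kinase, averaged 2409 ± 316 in Mye-/- and 1798 ± 304 in fl/fl libraries (adjusted p = 0.402). Gnai2, the highest activator per kb and a subunit of the inhibitory G protein to which cannabinoid receptors couple, averaged 46550 ± 6129 in Mye-/- and 52924 ± 8680 in fl/fl libraries. Among 7 other phospholipases C, Plcb3 averaged 3248 ± 327 in Mye-/- and 2824 ± 235 in fl/fl libraries, and Plcl2, a relative without catalytic activity, averaged 3808 ± 544 in Mye-/- and 4382 ± 601 in fl/fl libraries. Plcb4, named after its values were seen, had 23.9 to 94.1 normalized reads in Mye-/- and 0 in fl/fl libraries other than S5 (19.3) (limma adjusted p = 0.309). Low features piled up at 71.6 and 62.8 normalized reads in fl/fl S3 and S4, so their 0 counts say little about the level of Plcb4.

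Other hydrolases of glycerolipids included Ddhd1, a phospholipase A1, which averaged 2716 ± 435 normalized reads in Mye-/- and 2102 ± 83.0 in fl/fl libraries without overlap (log2 fold change 0.36 ± 0.16, limma adjusted p = 0.450). Between mice of 11 weeks its log2 fold change was 0.12. Abhd2, another hydrolase of 2-AG, averaged 579 ± 94 in Mye-/- and 413 ± 222 in fl/fl libraries, and Pla2g15, the lysosomal phospholipase A2 and the highest of its list per kb by the mean of all libraries, averaged 3836 ± 1235 in Mye-/- and 3471 ± 835 in fl/fl libraries. Faah, the main anandamide hydrolase in many tissues and named after its values were seen, was detected in 3 libraries only, at 52.6 normalized reads in Mye-/- S10 and at 46.4 and 83.6 in fl/fl S1 and S3. Asah1, the lysosomal ceramidase related to Naaa, averaged 11278 ± 1049 in Mye-/- and 11050 ± 758 in fl/fl libraries. Faah was under the filter and was not tested, and none of the other hydrolase genes named here passed the test. On the routes to anandamide that bypass Napepld, the phosphodiesterase gene Gde1 averaged 981 ± 143 in Mye-/- and 1183 ± 340 in fl/fl libraries, and the phosphatase gene Inpp5d averaged 13665 ± 1068 in Mye-/- and 12302 ± 1356 in fl/fl libraries.

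Of the receptors, Cnr1, which encodes CB1, was at 0 in all 9 libraries, and Cnr2, which encodes CB2, was present in all of them. Cnr2 had 1252, 1795, 2245, 2092 and 1954 normalized reads in Mye-/- S8 to S12, against 1495, 2051, 1987 and 1812 in fl/fl libraries S1, S3, S4 and S5. Its values overlapped throughout, with a log2 fold change of 0.01 ± 0.19 (limma adjusted p = 0.994). Gpr18, a receptor proposed for N-arachidonoyl glycine, averaged 323 ± 132 in Mye-/- and 182 ± 100 in fl/fl libraries, and Pparg, the nuclear receptor that fatty acid derivatives activate, averaged 609 ± 261 in Mye-/- and 402 ± 189 in fl/fl libraries. All 5 tested lipid carriers had a lower mean log2 value in Mye-/- libraries, and 0 had an unadjusted p under 0.05. Fabp5, a fatty acid binding protein that carries anandamide, averaged 1523 ± 136 in Mye-/- and 1925 ± 405 in fl/fl libraries. Its relative Fabp4 averaged 124 ± 89 in Mye-/- and 259 ± 197 in fl/fl libraries, and the sterol carrier Scp2 averaged 2366 ± 274 in Mye-/- and 2543 ± 92 in fl/fl libraries.

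Among 13 tested genes of oxygenation and of other arachidonate handling, 2 had a higher and 1 a lower level at an unadjusted p under 0.05. Of all features, 6.38% were higher and 4.13% lower at that level. Ptgs2, the inducible cyclooxygenase, averaged 18553 ± 3936 normalized reads in Mye-/- and 13887 ± 5241 in fl/fl libraries (log2 fold change 0.46 ± 0.20, limma adjusted p = 0.438). Its constitutive relative Ptgs1, named after its values were seen, averaged 298 ± 126.3 in Mye-/- and 155 ± 161 in fl/fl libraries (adjusted p = 0.473). Alox15, a lipoxygenase of resident macrophages and eosinophils, had 30.4, 24.1, 0, 16.0 and 11.1 normalized reads in Mye-/- S8 to S12, against 170.6, 35.8, 206.9 and 72.0 in fl/fl libraries S1, S3, S4 and S5. It did not overlap between genotypes (log2 fold change -3.17 ± 1.28, limma adjusted p = 0.405). Its Mye-/- values lay within or below the range of the low read pile-ups, and its value in fl/fl S3 lay below the pile-up of that library (71.6). Alox5ap, the partner of 5-lipoxygenase and the highest gene of the list per kb, averaged 46849 ± 3097 in Mye-/- and 58430 ± 13061 in fl/fl libraries. Of the eosinophil and mast cell markers, Prg2 and Epx were at 0 in every library. Siglecf, another of them, had 100 normalized reads in Mye-/- S10, 23.9 in Mye-/- S12, 83.6 in fl/fl S1 and 2.64 in fl/fl S5. It was at 0 in the other libraries. The summed level of these markers spanned 0 to 100 normalized reads in Mye-/- and 28.8 to 200.6 in fl/fl libraries.

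**Figure D4:**
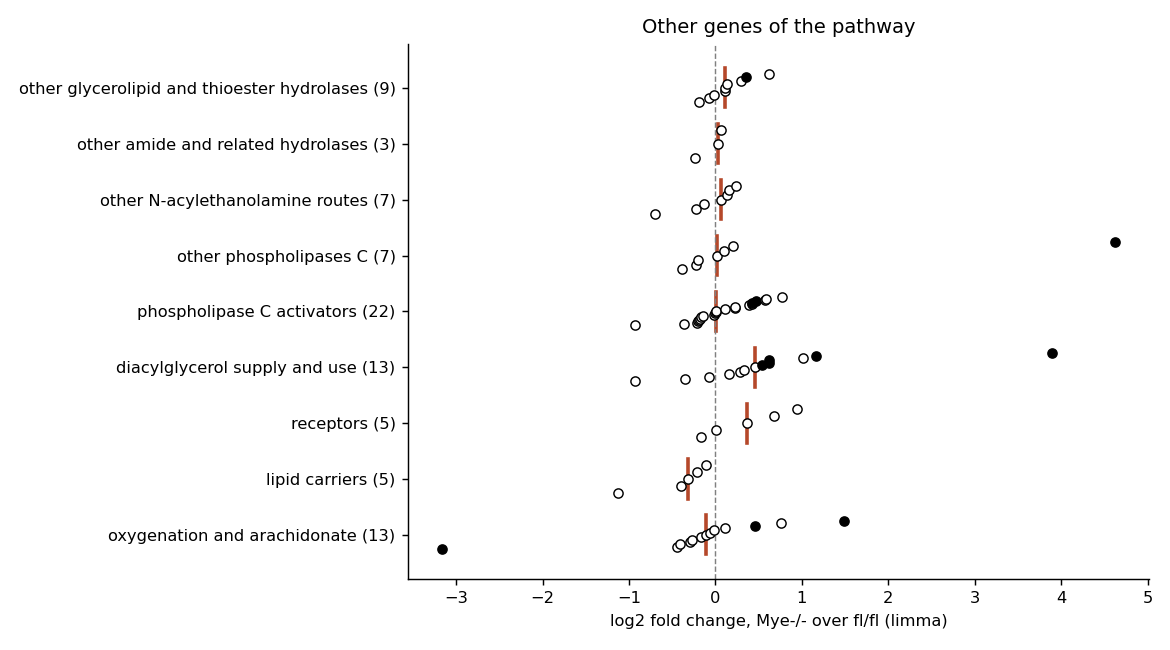
Log2 fold change of Mye-/- over fl/fl libraries (horizontal axis, limma) for 84 tested genes in 9 lists, with the number tested after each name. All lists were chosen with earlier results of these data known. Filled points have an unadjusted p under 0.05 and red lines are medians; the diacylglycerol list has its median at 0.46 and 5 filled points, and 0 genes pass the adjusted threshold.

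Markers of other cell types that the gate could hold were present at unequal levels. B cell markers summed to 71.6 to 166 normalized reads in Mye-/- and 137 to 176 in fl/fl libraries, with Pax5, Blk and Ebf1 at 0 in every library. Stellate cell markers summed to 0 to 72.6 in Mye-/- and 62.1 to 207.8 in fl/fl libraries, with Lrat and Reln at 0. T and NK cell markers reached 81.2 to 561 in Mye-/- and 69.6 to 607 in fl/fl libraries, and dendritic cell markers 385 to 1212 in Mye-/- and 249 to 524 in fl/fl libraries, with Xcr1 and Siglech at 0. Endothelial markers stood at 463 to 695 in Mye-/- and 324 to 1234 in fl/fl libraries. Neutrophil markers summed to 12198 to 33788 in Mye-/- and 24892 to 45050 in fl/fl libraries, nearly all from S100a8 and S100a9, which monocytes also express. Among the more specific ones, Cxcr2 reached at most 58.8 in Mye-/- and 86.4 in fl/fl libraries, and Ly6g was at 0 in all Mye-/- and at most 1.19 in fl/fl libraries. Others stood higher in some libraries and at 0 in others. Retnlg reached 577.9 in Mye-/- S11 and 507.2 in fl/fl S1, and Mpo 416.8 in Mye-/- S12. Ltf reached 387.6 in fl/fl S1, Ngp 253.9 and Camp 188.8 in Mye-/- S9, and Elane 151.2 in Mye-/- S12. Platelet and erythroid markers, mostly the globin genes Hba-a1 and Hbb-bs, summed to 2138 to 4765 in Mye-/- and 4658 to 25690 in fl/fl libraries. Monocyte markers, which recruited macrophages also express, summed to 580692 to 945423 in Mye-/- and 562807 to 842013 in fl/fl libraries. All 9 tested hepatocyte markers had a higher mean log2 value in Mye-/- libraries, with a lowest limma adjusted p of 0.323 (Rbp4). Trf, which made up most of their sum, averaged 17201 in Mye-/- and 17602 in fl/fl libraries. Cyp2e1, which was not tested, was detected only in fl/fl S1 (65.0) and S5 (7.91). The part of all these cell types in the values of Plcb2, Naaa and the other genes was not tested.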

How the data were processed

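The authors' deposited table is a signal table of read counts divided by 1 size factor per library by DESeq. This is per the file headers and per the submitters' processing notes, and those notes also name STAR 2.4.0, SAMtools, Picard, FastQC and mm10. The counting tool, strand setting and treatment of duplicates are not given in the sources used here. Dividing each library by its smallest nonzero value gave whole reads, within 0.01 reads, for 100% of nonzero values. No molecular identifiers are recorded, so floors cover counting error only. Of the recovered nonzero read numbers under 1000, 66.1% (Mye-/- S11) to 68.3% (Mye-/- S10) were even, so reads may not be independent of each other. The bounds for a count of 0 may then be too low, and edgeR and DESeq2 were run on the same numbers. The cause of the even numbers was not tested.

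Log2(value + 1) was fitted in R 4.3.3 by limma 3.58.1, with its trend option and two-sided, for features reaching 10 in 4 or more libraries, as Mye-/- minus fl/fl. edgeR 4.0.16 and DESeq2 1.42.0 were run on the recovered reads as alternatives, beside other pseudocounts, filters, scalings, an age covariate, 11-week-old mice only and each library left out. Exact permutation tests between genotypes took all regroupings of the 9 libraries, and the smallest p they can give is 0.00794; those of correlations took all pairings. Lengths, exons and overlaps came from GENCODE M21 (GRCm38, the assembly of mm10), and markers from 12 lists.

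The 10 genes and all lists were chosen with earlier results of these data known. Of each pathway list the text names the 2 genes with the smallest p at a mean of at least 50 and the highest per kb, and Cnr1 and Cnr2; genes named outside this rule are marked. Some genes that the rule selects are not reported here.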

Additional observations from a re-analysis of the deposited data

Results flagged for a closer look

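In 3 cases a value lay far from the other libraries of its group by Dixon's gap test at 95%, on normalized reads. Chance alone flags about 1 in 20 groups of normally distributed values. That rate need not hold for Abhd6 and Dagla, which were low and at 0 in some libraries. Abhd6 stood at 51.7 normalized reads in Mye-/- S10 and at 0 in the other Mye-/- libraries. Dagla stood at 149.4 in Mye-/- S9, where the next Mye-/- library had 36.3. Abhd12 stood at 929 in fl/fl S5, where the other fl/fl libraries had 1551 to 1641.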

How the results depend on the processing

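None of the 10 genes, and none of the other pathway genes, passed the adjusted threshold in any of the 24 alternatives. The number of all features that did was 3, and it became 17 with a pseudocount of 8 or 50, 6 with TMM scaling, 8 with quantile normalization, 9 with robust limma, 21 without the intensity trend, 5 with array weights, 146 with DESeq2 and 0 with age as a covariate or 11-week-old mice only. It ranged over 0 to 20 as each library was left out, and it was 9 without fl/fl S1 and S3, an alternative chosen after seeing the data. The cause of these shifts was not tested.

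The log2 fold change changed sign in some alternatives for Dagla, Mgll and Napepld, near the detection limit, and for Abhd12 and Daglb, well above it. Dagla, at -0.16, moved to 0.067 with a pseudocount of 50, 0.76 with array weights, 0.50 with edgeR, 0.49 with DESeq2 and 0.93 without fl/fl S1 and S3, and ranged from -1.44 to 0.76 as each library was left out. That range was -1.45 to 0.80 for Mgll, -0.30 to 1.94 for Napepld and -0.10 to 0.17 for Abhd12, in the exact permutation differences as in limma. Daglb moved to -0.094 with age as a covariate or 11-week-old mice only. Naaa, Plcb2 and Plcg2 kept their direction in all 24 alternatives. So did Abhd16a, whose value was 0.00018 without Mye-/- S10. Naaa lost its unadjusted exact p under 0.05 in 8 of 12 alternatives.

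Of the pathway genes, 11 were higher at an unadjusted p under 0.05. This count was 7 without the intensity trend or without fl/fl S1 and S3, 4 with the age covariate, 6 with edgeR, 2 with 11-week-old mice only, and 7 to 10 as each library was left out. The count of lower ones, 1, was 2 with robust limma, edgeR or DESeq2, 0 with 11-week-old mice only, and 1 to 2 as each library was left out. In the diacylglycerol list the count of higher genes, 5, was 3 with the age covariate, edgeR or without fl/fl S1 and S3, 1 with 11-week-old mice only, and 4 to 5 as each library was left out.

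With the longest transcript as length, levels per kb were 731.9 for Abhd12, 969.7 for Abhd16a, 229.4 for Daglb, 2645 for Naaa and 410.1 for Plcb2. No paired analysis was possible because the groups share no replicate numbers. For Mgll, Dagla and Napepld the values within a genotype spread too widely for the test to show a difference of moderate size.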
